A study of Mus musculus with 8 samples.

Results

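Type I interferon-stimulated antiviral genes were examined in mouse bone marrow-derived macrophages, phagocytes differentiated in a dish from precursors of the marrow. The set held 46 genes, picked by name with earlier results of these data known. The genes were divided here by role into nucleic acid sensors, antiviral effectors and regulators. Of these, 44 had a row in the deposited table of 17492 genes, and all 44 were among the 11702 genes with enough counts to be tested. Mx1 and Mx2, which encode dynamin-like antiviral GTPases, were not analysed here. All libraries came from C57BL/6 cells with no engineered allele named in the labels. The serine/glycine-free group was cultured in medium without these amino acids and the control group, labelled untreated, in normal medium, with 4 libraries in each. The treatment label of the first group names serine alone, and the protocol names both amino acids. RNA was selected with oligo-dT. The labels do not say how long the amino acids were withheld, whether the cells were stimulated, or which cultures or animals the replicates stem from, so p-values measure only the spread between these libraries, which may be technical.

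Type I interferons, the alpha and beta forms, are secreted after cells sense foreign or misplaced nucleic acid. They bind the receptor made of IFNAR1 and IFNAR2, whose kinases JAK1 and TYK2 phosphorylate transcription factors of the STAT family. With IRF9 these form the complex ISGF3, which binds the interferon-stimulated response element in the promoters of the genes described here. Macrophages keep a part of this programme active without infection, through a low tonic interferon signal.

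Library totals lay between 17565291 and 18201599 estimated counts. Each pair of libraries within a group differed by more than sampling noise, with a chi-square per degree of freedom of 1.42 to 3.6 over tested genes. Its 3 highest values, 2.91 to 3.6, were the pairs that included replicate 4 of the serine/glycine-free group. Of 12 macrophage markers, all 12 were detected, with a summed level of 21060 to 21470 CPM (counts scaled to a common library total) in controls and 20970 to 21150 CPM without serine and glycine. Of the 12, 6 fell and 5 rose: the defining gene Adgre1 went from 5763 ± 67.3 to 4849 ± 131 CPM (SD, n = 4), and Csf1r from 946 ± 6.57 to 1258 ± 18.8 CPM. The largest log2 change of the 12 was that of Itgam, from 1695 ± 33.7 to 1110 ± 31.8 CPM. The summed level came mainly from Adgre1 and from Lyz2, which rose from 9107 ± 193 to 9994 ± 64.8 CPM. Similar sums in the groups thus hide opposite changes. Of 9 markers of plasmacytoid dendritic cells, a cell type that makes large amounts of type I interferon, 6 lay under 1 CPM in every library, the defining receptor gene Siglech among them. The list's summed level, 364 to 374 CPM in controls and 369.5 to 400.2 CPM without serine and glycine, came mainly from Bst2 and Tcf4, which macrophages also express. Of 10 neutrophil markers 9, of 6 B-cell markers 5, and all 7 stromal markers lay under 1 CPM in every library. The B-cell list summed to 43.6 to 51.3 CPM in controls and 32.2 to 38.9 CPM without serine and glycine, nearly all from Cd79b. The neutrophil list summed to 0.993 to 1.4 and 2.11 to 2.56 CPM, and monocyte markers to 10.2 to 10.7 and 7.26 to 9.49 CPM. Conventional dendritic cell markers summed to 7.6 to 8.36 and 8.85 to 12.6 CPM, and T and NK cell markers to 2.76 to 3.53 and 3.09 to 3.72 CPM. The part of these cell types in the results below was not tested. In bulk RNA, fewer cells of a type and less RNA per cell cannot be told apart.

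Without serine and glycine, most of these genes were modestly lower. Of 44 tested, 32 fell, 1 rose and 11 did not pass an adjusted p of 0.05 (edgeR quasi-likelihood test, Benjamini-Hochberg over all genes tested). Among all genes tested 17.3% fell and 15.8% rose, against 72.7% and 2.27% of these genes. The set was chosen with earlier results of these data known, so this contrast is descriptive only. Their median log2 change was -0.18, a level 11.5% lower, beside 0.0074 over all genes. The changes ran from -0.73 for Zbp1 to 0.07 for Bst2, and 42 of the 44 were negative. Of the genes that fell, 9 fell by at least 20% and 6 by less than 10%. The lowest library of one group and the highest of the other did not overlap, in the downward direction, for 32 of the 44 genes, against 16.2% of all genes tested. Those 32 were not the same 32 that passed the test: Eif2ak2 passed with overlapping groups, and Daxx did not pass although its groups were apart. By class, 12 of 14 sensors, 12 of 17 effectors and 8 of 13 regulators fell, with median log2 changes of -0.18, -0.17 and -0.18. These shares were not tested against each other. After removal of the relation between expression ratio and transcript length in each library, called the length trend here, 35 genes fell, 31 of them in common with the 32, and 0 rose, with a median of -0.17.

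**Figure D1:**
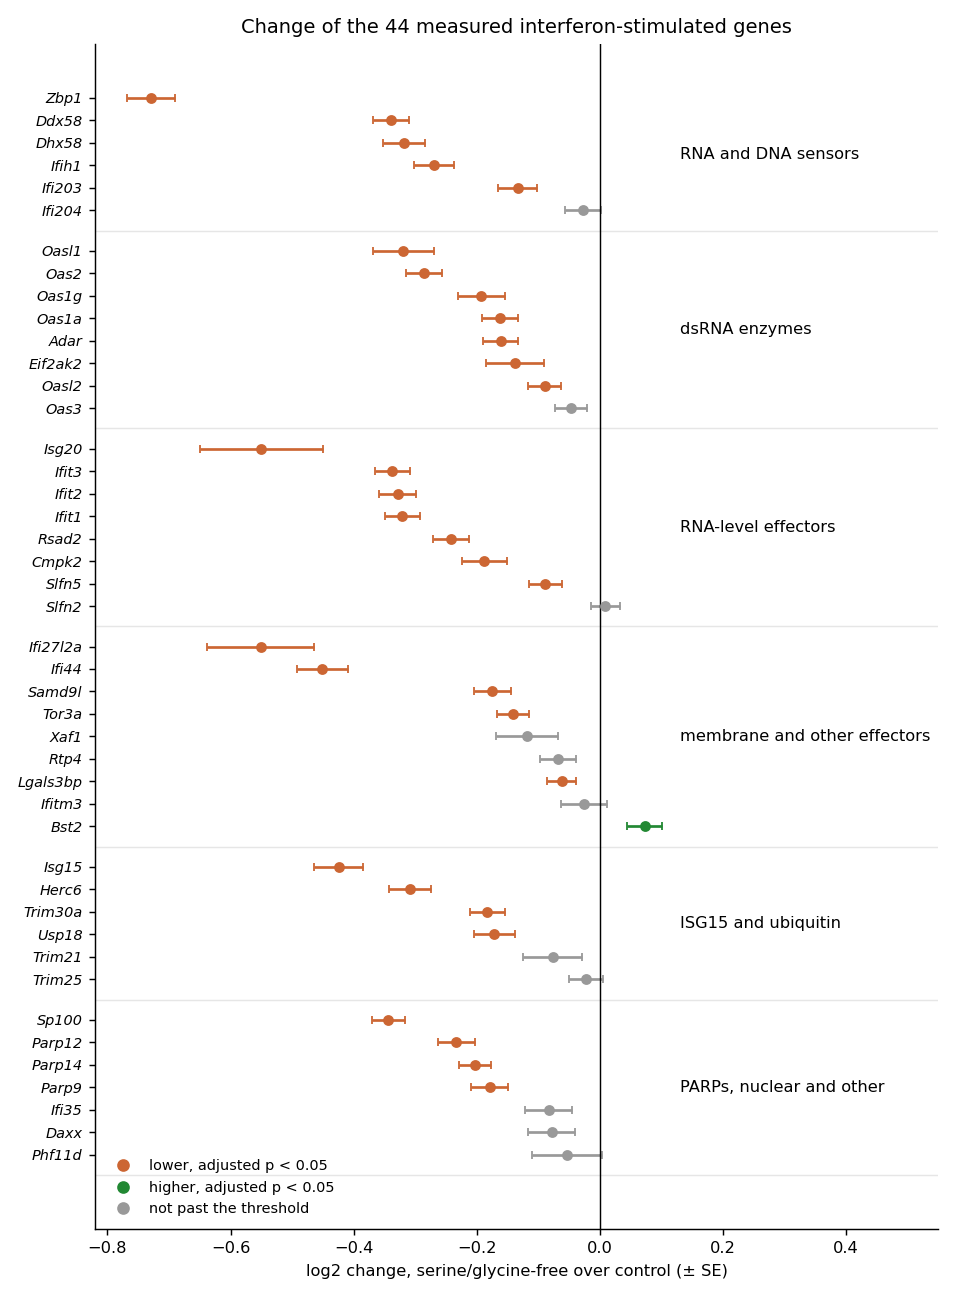
Log2 change (serine/glycine-free over control, points, with standard errors as bars) of the 44 measured genes by role group. Nearly all points lie left of 0, down to -0.73 for Zbp1. Slfn2 (0.0089) and Bst2 (0.07) lie right of it and Trim25 (-0.02) just left, and these 3 change sign when the length trend is removed.

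The per-library view gave the same picture. The median over the 44 genes of the log2 ratio to the control mean was -0.0058, -0.025, 0.0022 and 0.0055 in control replicates 1 to 4. It was -0.16, -0.18, -0.18 and -0.20 in serine/glycine-free replicates 1 to 4. All serine/glycine-free libraries were thus below all control libraries, by this median. Within the groups, serine/glycine-free replicate 4 held the lowest level of its group for 20 of the 44 genes, and control replicate 2 for 19 of 44. With serine/glycine-free replicate 4 left out, 33 genes fell, and with control replicate 2 left out, 31.

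**Figure D2:**
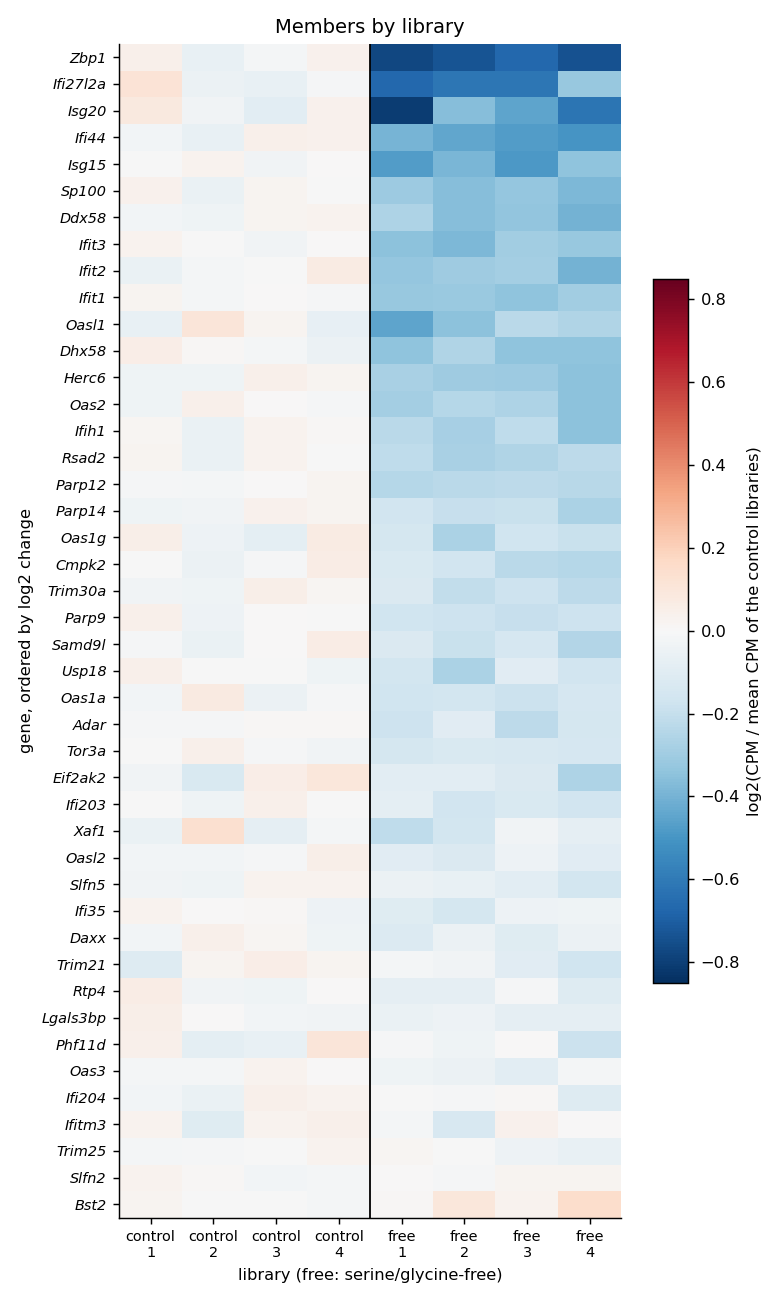
Log2 ratio of each library's CPM to the mean of the control libraries, for the 44 genes (rows, ordered by log2 change) in 4 control and 4 serine/glycine-free libraries (columns). The right-hand columns are blue for most rows, with library medians of -0.16 to -0.20, and the left-hand columns stay near 0.

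Promoter sequences were searched for the element that ISGF3 binds. RefSeq promoters on GRCm38.p6, which run from 250 bases before to 50 bases after a gene's start, were matched by gene ID for 34 of the 44 genes. The motif searched was GAAANNGAAA, the core of the interferon-stimulated response element, on either strand, so that the printed strand may show its complement TTTCNNTTTC. Overlapping matches were counted separately. It was found in 16 of the 34 genes, 47.1%, against 3.99% of all 27025 genes with a promoter in that table. A gene with several promoters counted if any of them held a match. The set was chosen as interferon-stimulated genes, so a high share follows from that choice and does not bear on the changes in level. It was present in 12 of the 24 such genes that fell, in 3 of the 9 that did not pass and in Bst2. Among 361 other tested genes that hold the motif, 25.2% fell and 16.1% rose, with a median log2 change of -0.01. Over all genes tested, with or without a promoter in that table, the shares were 17.3% and 15.8%. The 8 windows below were chosen after the values were seen, to set genes that fell beside Oas3, which did not pass, and Bst2. Each lies before the start that the promoter table uses and is printed 5′ to 3′ on the strand of the gene, with motif matches in capitals.
Isg15, chr4:156200860-156200911, minus strand: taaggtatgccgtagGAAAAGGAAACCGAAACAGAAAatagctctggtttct
Ifit1, chr19:34640770-34640828, plus strand: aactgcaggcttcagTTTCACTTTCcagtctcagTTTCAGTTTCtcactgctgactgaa
Ifit3, chr19:34583358-34583431, plus strand: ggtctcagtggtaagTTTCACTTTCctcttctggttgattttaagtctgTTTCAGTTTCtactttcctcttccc
Rsad2, chr12:26456548-26456587, minus strand: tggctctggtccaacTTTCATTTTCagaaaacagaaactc
Oas1a, chr5:120907526-120907560, minus strand: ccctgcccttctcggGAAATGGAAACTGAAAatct
Oas1g, chr5:120887614-120887646, minus strand: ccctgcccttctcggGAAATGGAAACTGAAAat
Oas3, chr5:120777710-120777749, minus strand: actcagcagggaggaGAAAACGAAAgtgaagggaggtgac
Bst2, chr8:71537572-71537617, minus strand: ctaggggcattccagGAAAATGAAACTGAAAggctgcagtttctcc
Isg15 carried 3 overlapping matches, beginning 78 to 66 bases before its start. Ifit1 and Ifit3 carried 2 each, and Oas1a and Oas1g an identical overlapping pair. Bst2 also carried 2, beginning 130 and 124 bases before its start. By the gene bounds of RefSeq, which take in every transcript, the Ifit3 gene begins upstream of the printed window, at 34583119, and the Oas1a window overlaps the gene, which ends at 120907544 on the minus strand. A match describes these letters only.

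Of the sensors of foreign RNA and DNA, 5 of 6 fell, with a median log2 change of -0.29. Zbp1 encodes a sensor of Z-form nucleic acid that can start necroptosis. It stood at 78.0, 72.3, 74.7 and 77.4 CPM in control replicates 1 to 4 and at 44.2, 45.4, 47.5 and 45.2 CPM in the serine/glycine-free ones. This was the largest change of the set, with groups far apart (log2 change -0.73, SE 0.0395, adjusted p = 2.49e-19). Ddx58 encodes RIG-I, a cytosolic sensor of viral RNA ends. Its levels were 258, 255, 266 and 267 CPM in controls and 218, 203, 207 and 198 CPM without serine and glycine (log2 change -0.34, SE 0.0287, adjusted p = 3.74e-13). Dhx58 encodes LGP2, a helicase that modulates the other RIG-I-like receptors. It stood at 118, 113.5, 112 and 109 CPM in controls and at 89.2, 94.6, 89.3 and 89.1 CPM without serine and glycine (log2 change -0.32, SE 0.0334, adjusted p = 1.52e-10). No serine/glycine-free library reached the lowest control library for any of these 3 genes. Ifih1, which encodes the long double-stranded RNA sensor MDA5, went from 138 ± 3.75 to 114 ± 4.79 CPM (SD, n = 4; log2 change -0.27, edgeR adjusted p = 4.15e-09). The whole RIG-I-like receptor family therefore fell. The PYHIN genes Ifi203 and Ifi204, relatives of a DNA sensor in a gene cluster on chromosome 1, moved less. Ifi203 fell by 0.13 on the log2 scale (adjusted p = 0.000673), and Ifi204 stood at -0.03 (adjusted p = 0.504) with overlapping groups. Reads of this family may be split between close copies, since estimated counts of both were not whole in 100% of libraries. The summed level of 8 measured PYHIN genes was 1252 ± 34.0 CPM in controls and 1160 ± 34.4 CPM without serine and glycine, with groups that did not overlap. The weakly expressed Ifi202b, Ifi205 and Ifi214 were left out of this sum. Its genes did not move as one. Ifi208 (-0.55), Ifi213 (-0.45), Ifi209 (-0.27), Ifi207 (-0.13) and Mndal (-0.11) fell, and Ifi211 rose by 0.12 (adjusted p = 0.00377).

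Among OAS-family and other genes for proteins that bind double-stranded RNA, 7 of 8 fell, with a median of -0.16. The OAS proteins make an oligoadenylate that activates the nuclease RNase L. Oas2 stood at 194, 205, 199 and 198 CPM in controls and at 163, 168, 165.5 and 156 CPM without serine and glycine (log2 change -0.29, SE 0.0291, adjusted p = 6.72e-11). Oasl1, an OAS-like protein that is known to restrain Irf7 translation, stood at 42.0, 47.2, 44.6 and 41.8 CPM against 32.2, 34.4, 37.5 and 36.7 CPM (log2 change -0.32, SE 0.0494, adjusted p = 1.32e-06). Adar, which edits adenosines in double-stranded RNA and limits its sensing, stood at 203, 204, 206 and 206 CPM against 181, 191, 175 and 184 CPM (log2 change -0.16, SE 0.0285, adjusted p = 1.33e-05). The groups were apart for each of these 3. Oas1a (-0.16) and Oas1g (-0.19) fell as well, and their sum went from 288 ± 8.46 to 255.5 ± 2.59 CPM (SD, n = 4). Both had non-whole counts in 100% of libraries, so the split between these close copies is uncertain. Oas3, the longest of the OAS genes in the chromosome 5 cluster, did not pass: it stood at 299.6, 299, 309 and 303 CPM in controls and at 295, 293, 284 and 299 CPM without serine and glycine (log2 change -0.05, adjusted p = 0.166), with overlapping groups. Oasl2 fell by 0.09 (adjusted p = 0.00913), a call lost without control replicate 4 (adjusted p = 0.061). Eif2ak2, which encodes the kinase PKR that stops translation on viral RNA, fell by 0.14 (adjusted p = 0.0332) with overlapping groups. Its call was lost without control replicate 3 (adjusted p = 0.0942), control replicate 4 (0.0665) or serine/glycine-free replicate 3 (0.0697).

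**Figure D3:**
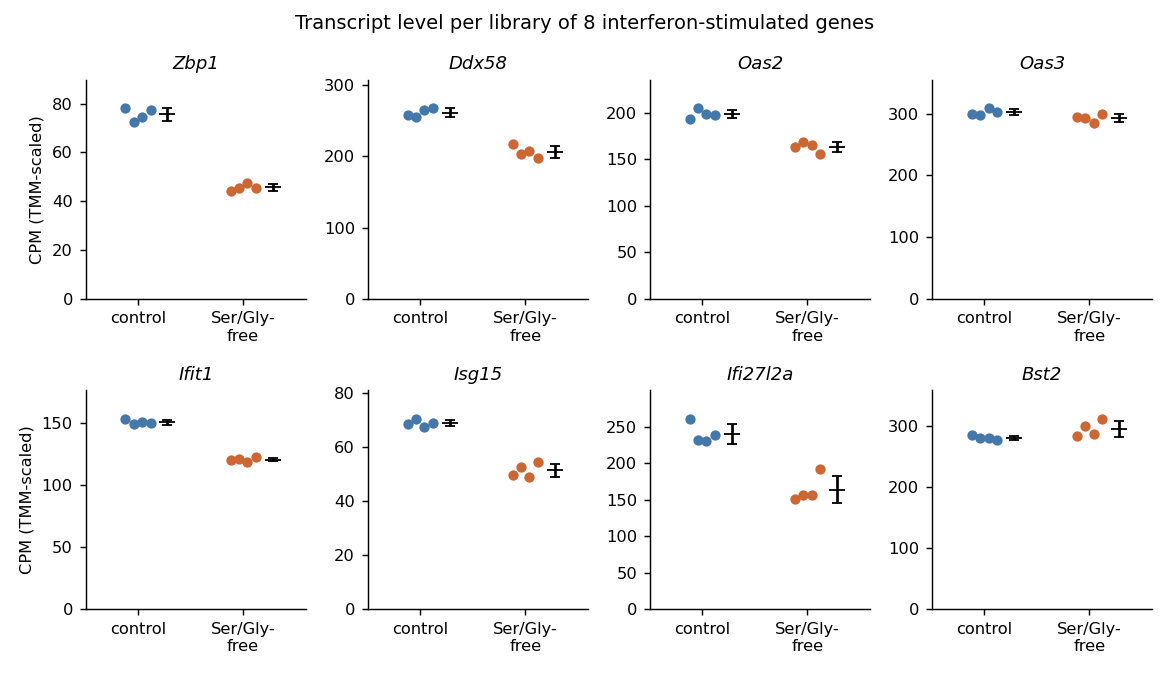
TMM-scaled CPM in each library (points) with mean and SD (bars, n = 4) for 8 genes, each axis starting at 0. Zbp1, Ddx58, Oas2, Ifit1, Isg15 and Ifi27l2a show separate groups, while those of Oas3 and Bst2 overlap, and replicate 4 of the serine/glycine-free group stands at 192 CPM for Ifi27l2a, above the other 3.

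Of the effectors that act on RNA or nucleotides, 7 of 8 fell, with a median of -0.28. IFIT proteins bind viral RNA and block its translation, and the 3 members on chromosome 19 fell by 0.32 to 0.34 on the log2 scale. Ifit1 stood at 154, 149, 151 and 150.0 CPM in controls and at 121, 121, 119 and 123 CPM without serine and glycine (log2 change -0.32, SE 0.0291, adjusted p = 2.86e-12). Ifit2 stood at 226, 231, 234 and 246 CPM against 187, 190.4, 192 and 177 CPM (log2 change -0.33, SE 0.0298, adjusted p = 2.86e-12). Ifit3 stood at 196, 191, 187 and 191 CPM against 150.2, 147, 156 and 153 CPM (log2 change -0.34, SE 0.0286, adjusted p = 3.94e-13). For all 3 the groups were well apart. Ifit3 has a near-identical neighbour, Ifit3b, and both had non-whole counts in 100% of libraries. Their summed level, which does not depend on that split, went from 242 ± 4.26 to 187 ± 4.59 CPM (SD, n = 4). Isg20, an RNA exonuclease, was the weakest expressed of the set, with as few as 84 counts in a library. It went from 8.07 ± 0.431 to 5.51 ± 0.733 CPM (log2 change -0.55, SE 0.0999, edgeR adjusted p = 2.04e-05). Rsad2 encodes viperin, which makes a chain-terminating nucleotide, and Cmpk2, its neighbour on chromosome 12, encodes a kinase that feeds it. They fell by 0.24 (adjusted p = 6.19e-09) and 0.19 (adjusted p = 7.17e-05). Slfn5 of the Schlafen family fell by 0.09 (adjusted p = 0.00792), a call lost with the length trend removed (-0.04, adjusted p = 0.235). Slfn2, which is needed for immune cell quiescence, stood at 0.0089 (adjusted p = 0.812) and at -0.02 with the length trend removed.

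Effectors at membranes and other restriction factors were mixed: of 9 measured, 5 fell, 1 rose and 3 did not pass. Ifi44 stood at 59.3, 57.6, 62.1 and 61.7 CPM in controls and at 45.8, 44.3, 43.3 and 42.6 CPM without serine and glycine (log2 change -0.45, SE 0.0411, adjusted p = 3.26e-12). Samd9l, a restriction factor of poxviruses, stood at 229, 222, 231 and 241 CPM against 212, 202, 209 and 194 CPM (log2 change -0.17, SE 0.0298, adjusted p = 7.54e-06). Tor3a, an ATPase of the torsin family, stood at 282, 292, 281 and 277 CPM against 255, 258, 257 and 256 CPM (log2 change -0.14, SE 0.026, adjusted p = 2.6e-05). The groups were apart for these 3. Ifi27l2a, a small hydrophobic interferon-induced protein, stood at 260.4, 232, 229.8 and 238 CPM in controls. Without serine and glycine it stood at 151, 157, 156 and 192 CPM (log2 change -0.55, SE 0.087, adjusted p = 0.00317). The groups did not overlap, but replicate 4 was above the other 3 of its group, and without it the log2 change was -0.63 (edgeR adjusted p = 2.14e-16). Lgals3bp, a secreted glycoprotein, fell by 0.06 (adjusted p = 0.0366). That call was lost without control replicate 1 (adjusted p = 0.171), control replicate 2 (0.0722), serine/glycine-free replicate 1 (0.059) or serine/glycine-free replicate 3 (0.116).

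Bst2, which encodes tetherin and holds budding virions at the cell surface, was the only gene of the 44 with a rise past the threshold. It stood at 286, 281, 281 and 277 CPM in controls and at 283.5, 299.8, 287 and 312 CPM without serine and glycine, with overlapping groups (log2 change 0.07, SE 0.0278, adjusted p = 0.0396). The call rested on a narrow margin. It was lost without control replicates 2, 3 or 4 (adjusted p = 0.0805, 0.0761 and 0.105) and without serine/glycine-free replicates 2 or 4 (0.0955 and 0.164). DESeq2 gave an adjusted p of 0.104, and with the length trend removed the change was -0.01 (adjusted p = 0.768). Bst2 is a short transcript, with an effective length of 0.621 kb. Ifitm3, which blocks viral fusion in endosomes, is shorter still at 0.50 kb, and stood at -0.03 (adjusted p = 0.647). With the length trend removed it fell by 0.12 (adjusted p = 0.000195). Rtp4 (-0.07, adjusted p = 0.0694) and Xaf1 (-0.12, adjusted p = 0.0679) did not pass. Both passed with the length trend removed (adjusted p = 0.00114 and 0.00748). Leaving out serine/glycine-free replicate 3 also took Rtp4 past the threshold (adjusted p = 0.0409). Xaf1 passed without control replicate 3 (0.0436) and without serine/glycine-free replicates 3 or 4 (0.0452 and 0.0495).

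**Figure D4:**
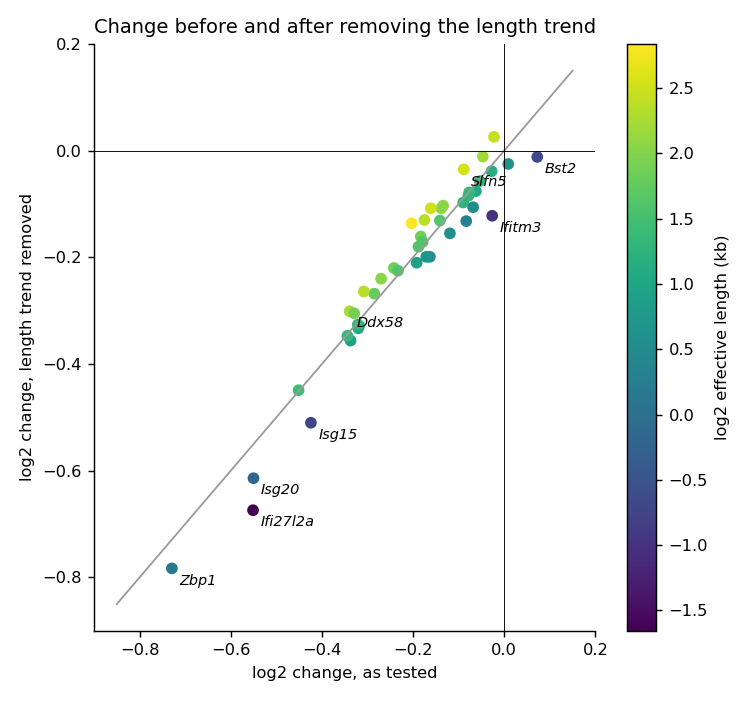
Log2 change of the 44 genes as tested (horizontal) and after removal of the length trend (vertical), coloured by effective length. Short genes such as Ifi27l2a, Isg15, Ifitm3 and Bst2 lie below the diagonal, Slfn5 lies above it, and the median goes from -0.18 to -0.17.

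Of regulators in the ISG15 and ubiquitin system, 4 of 6 fell. Isg15 encodes a ubiquitin-like modifier that is joined to viral and host proteins. It stood at 68.8, 70.4, 67.5 and 69.1 CPM in controls and at 49.6, 52.6, 49.1 and 54.4 CPM without serine and glycine (log2 change -0.42, SE 0.0395, adjusted p = 5.63e-12). Herc6, the main ligase for ISG15 in mice, stood at 93.8, 94.2, 99.5 and 98.1 CPM against 79.8, 78.1, 77.7 and 75.8 CPM (log2 change -0.31, SE 0.0342, adjusted p = 6.59e-10). Trim30a, which restrains Toll-like receptor signalling, stood at 249.8, 248, 264 and 258 CPM against 234, 220.3, 226 and 218 CPM (log2 change -0.18, SE 0.0281, adjusted p = 1.02e-06). The groups did not overlap for any of the 3. Trim30a and its close copy Trim30d summed to 354 ± 7.58 CPM in controls and to 309 ± 10.5 CPM without serine and glycine (SD, n = 4). Usp18, which removes ISG15 and dampens receptor signalling, fell by 0.17 (adjusted p = 7.52e-05). The modifier, its ligase and its protease thus fell together. Trim25, a ligase that supports RIG-I, stood at -0.02 (adjusted p = 0.589) and at 0.03 with the length trend removed. The antibody receptor Trim21 stood at -0.08 (adjusted p = 0.224).

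Of the ADP-ribosyltransferases, nuclear body genes and others, 4 of 7 fell. Sp100, a component of the PML nuclear body, stood at 322, 303, 319.6 and 313 CPM in controls and at 254, 245, 251 and 241 CPM without serine and glycine (log2 change -0.34, SE 0.027, adjusted p = 3.75e-14). Its estimated counts were not whole in 100% of libraries. Parp12 stood at 122, 122, 123 and 125 CPM against 104, 105, 105.5 and 104 CPM (log2 change -0.23, SE 0.0304, adjusted p = 2.96e-08). Parp14, which adds single ADP-ribose units, stood at 434, 436, 456 and 452 CPM against 398, 387, 390.0 and 369 CPM (log2 change -0.20, SE 0.0261, adjusted p = 2.23e-08). All 3 had separate groups. Parp9 fell by 0.18 (adjusted p = 5.1e-06). The other 3 did not pass: Daxx, a histone chaperone of the same nuclear body (-0.08, adjusted p = 0.111), Ifi35 (-0.08, adjusted p = 0.0912) and Phf11d (-0.05, adjusted p = 0.508). Estimated counts of Parp9 and Phf11d, like those of Sp100, were not whole in 100% of libraries. Ifi35 passed with the length trend removed (-0.13, adjusted p = 0.0022).

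Neighbouring relatives were compared directly, through the log2 ratio of their levels within each library, which does not depend on library scaling. The length trend was not removed here, so it can enter the ratio where relatives differ in length. The split of reads between close copies can enter too, as for Ifi203 and Ifi204. The 10 pairs were chosen after the values were seen. In 4 pairs the ratio was lower in every serine/glycine-free library than in any control library. The difference was -0.24 for Oas2 over Oas3, -0.23 for Oasl1 over Oasl2, -0.11 for Ifi203 over Ifi204 and -0.23 for Ifitm2 over Ifitm3. Each gave p = 0.0286 by a two-sided exact permutation test, which is the smallest value 4 against 4 libraries can give, and 0.0715 adjusted over the 10 pairs, so no pair passed. The groups overlapped for the other 6 pairs. The difference was 0.02 for Ifit1 over Ifit3 (exact permutation p = 0.657) and 0.03 for Oas1a over Oas1g (exact permutation p = 0.629).

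Levels between genes were compared per transcript length, in the TPM the authors deposited. Ifitm3 was highest in controls, at 1719 ± 77.5 TPM (SD, n = 4), followed by Ifi27l2a at 1378 ± 61.7, Bst2 at 823 ± 9.66, Lgals3bp at 650.1 ± 11.7 and Slfn2 at 645 ± 7.24 TPM. The last pair differed by less than their spread. Without serine and glycine Ifi27l2a stood at 912 ± 83.8 TPM and Lgals3bp at 609.6 ± 18.3 TPM, and these were the 2 of the 5 that fell by the count test. At the other end were Isg20 at 16.45 ± 0.575 and Phf11d at 18.0 ± 0.988 TPM. Across the 44 genes the log2 change had a Spearman rho of 0.15 with the control TPM and of 0.02 with effective length. The genes share libraries and are not independent, and these values describe the set only.

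Transcripts of the interferons were few. Ifnb1 had 2, 0, 1 and 2 counts in control replicates 1 to 4 and 4, 4, 2 and 3 counts in the serine/glycine-free ones. Ifnz, Ifnk and Ifng had 0 to 3 counts in any library, and the 17 other interferon genes of that list were not analysed here. A count of 0 allows up to 3 counts, which is 0.164 to 0.171 CPM per library, for counting error only. Ifnb1 counts overlapped between the groups (two-sided exact permutation p = 0.0857 on CPM). Summed over the 4 genes, the counts were 3, 0, 1 and 2 in controls and 5, 7, 5 and 8 without serine and glycine, so the groups did not overlap and the serine/glycine-free libraries were higher. This sum went from 0.0841 ± 0.0722 to 0.3496 ± 0.0892 CPM (SD, n = 4), with an exact permutation p of 0.0286, the smallest possible. Adjusted over these 2 comparisons, which were chosen after the values were seen, it was 0.0572 and did not pass. The sum includes Ifng, a type II interferon.

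Of 16 genes of the interferon receptors and the JAK-STAT pathway, 10 fell, 2 rose and 4 did not pass, with a median of -0.16. Thus 62.5% fell and 12.5% rose, beside 17.3% and 15.8% of all genes tested. Stat2 fell by 0.27 (adjusted p = 1.3e-10) and Stat3 by 0.29 (adjusted p = 5.67e-11). Tyk2, the kinase bound to IFNAR1, fell by 0.24 (adjusted p = 5.28e-08). The feedback inhibitors Socs3 (-0.47, adjusted p = 9.68e-12) and Socs1 (-0.44, adjusted p = 0.000136) fell as well. Irf9 fell by 0.09 (adjusted p = 0.0306), but its call was lost in 6 of 8 fits that left out 1 library. Those were control replicates 1, 2 and 4 (adjusted p = 0.0664, 0.0543 and 0.0773) and serine/glycine-free replicates 1, 3 and 4 (0.0859, 0.0529 and 0.081). DESeq2 (adjusted p = 0.0663) did not call it either. Neither subunit of the type I receptor was among the genes that fell. Ifnar2 rose from 124 ± 2.55 to 132 ± 2.94 CPM (SD, n = 4; log2 change 0.10, edgeR adjusted p = 0.0109), a call lost with the length trend removed (adjusted p = 0.145). Ifngr1, for the type II interferon receptor, rose to 166 ± 2.99 from 150.1 ± 2.22 CPM (log2 change 0.14, edgeR adjusted p = 8.1e-05). Ifnar1 stood at 0.08 (adjusted p = 0.0694) and passed on removal of the length trend (0.000749), of control replicate 4 (0.0398) or of serine/glycine-free replicate 4 (0.00446).

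**Figure D5:**
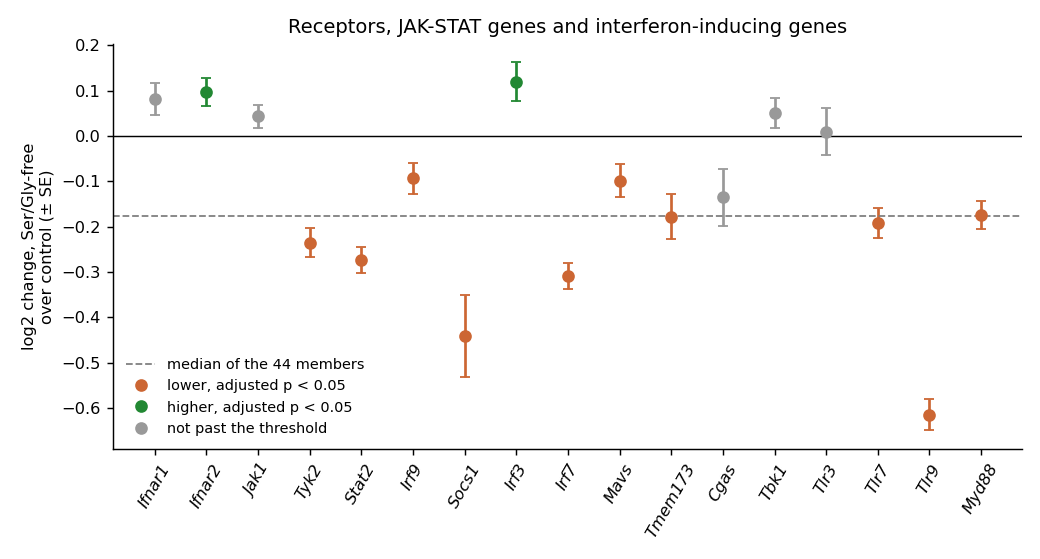
Log2 change (serine/glycine-free over control, points, with standard errors as bars) of 17 genes of interferon signalling and induction, with the median of the 44 antiviral genes, -0.18, as a dashed line. Stat2, Tyk2, Irf7 and Tlr9 lie well below 0, while Ifnar1, Ifnar2, Jak1 and Irf3 lie above it.

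Of 21 adaptors, kinases and factors that induce interferon, 11 fell, 1 rose and 9 did not pass, with a median of -0.10. Thus 52.4% fell and 4.76% rose, beside 17.3% and 15.8% of all genes tested. Samhd1, which hydrolyses deoxynucleotides and is itself antiviral, went down from 709 ± 3.79 CPM to 533 ± 1.35 CPM (SD, n = 4; log2 change -0.41, edgeR adjusted p = 3.98e-19). Tlr9, the endosomal receptor of unmethylated DNA, fell from 144 ± 5.63 to 93.7 ± 4.2 CPM (log2 change -0.61, edgeR adjusted p = 7.83e-19). Irf7, the interferon-induced factor that amplifies interferon production, stood at 239, 237, 236 and 231 CPM against 186, 201, 188 and 187 CPM (log2 change -0.31, SE 0.0284, adjusted p = 4.19e-12). The kinase gene Ikbke fell by 0.15 (adjusted p = 2.6e-06). Tmem173, which encodes STING, fell by 0.18 (adjusted p = 0.00493), and Cgas, whose product feeds STING, stood at -0.14 (adjusted p = 0.0921). Mavs, the adaptor of RIG-I and MDA5, fell by 0.10 (adjusted p = 0.0332), a call lost without control replicates 2 or 4 (0.064 and 0.136) or serine/glycine-free replicates 1 or 3 (0.0775 and 0.106) and with DESeq2 (0.0771). Irf3, the constitutive factor that starts interferon transcription, was higher by 0.12 on the log2 scale (adjusted p = 0.0274). That call was lost without control replicates 1 or 2 (0.0963 and 0.0921), without serine/glycine-free replicates 3 or 4 (0.0572 and 0.0804), with DESeq2 (0.108), and after removal of the length trend (0.0716).

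Relatives of the 44 genes and further interferon-stimulated genes were counted in the same way. Of 41 tested relatives, 22 fell, 6 rose and 13 did not pass, with a median of -0.12. Thus 53.7% fell and 14.6% rose, beside 17.3% and 15.8% of all genes tested, so the share that rose was near that of all genes. Ifit3b (-0.50, adjusted p = 5.47e-13), Ifitm2 (-0.26, adjusted p = 4.35e-10) and the Sp100 relative Sp110 (-0.31, adjusted p = 3.88e-09) fell. Estimated counts of Sp110, like those of Ifit3b, were not whole in 100% of libraries. Ifi27, from the family of Ifi27l2a, went the other way: it rose from 65.2 ± 1.89 to 92.4 ± 1.67 CPM (SD, n = 4; log2 change 0.50, edgeR adjusted p = 1.05e-15), and by 0.44 with the length trend removed. By the gene bounds of RefSeq, Ifi27 lies within Ifi27l2a on chromosome 12. Estimated counts of both were whole in every library, but the assignment of reads between these overlapping genes was not tested. The other relatives that rose were Ifitm1 (0.22, adjusted p = 0.000411), Slfn10-ps (0.40), Trim12c (0.17), Slfn9 (0.17) and Ifi211 (0.12). All of these but Ifitm1 had non-whole counts in 100% of libraries. Of 39 other interferon-stimulated genes tested, 26 fell, 4 rose and 9 did not pass, with a median of -0.16. These were 66.7% and 10.3%, beside the same shares of all genes. Trim14 (-0.30, adjusted p = 5.55e-11), Pml (-0.33, adjusted p = 3.29e-10), Lgals9 (-0.26, adjusted p = 5.1e-10) and the RNA helicase Mov10 (-0.37, adjusted p = 2.32e-09) fell. Among the 4 that rose, Helz2, a helicase that acts as a transcriptional co-activator, was highest in rank by p (0.26, adjusted p = 3.49e-09).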

How the data were processed

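RNA sequencing libraries of macrophages, 8 in all and 4 per group, were analysed from one table. Estimated counts, FPKM and TPM were deposited by the authors for each library. The submitters' processing notes list BWA, Bowtie2, RSEM and the build GRCm38.p6, without tool versions. Estimated counts, deposited as such, were rounded, since 8.06% to 8.47% of values per library were not whole (tolerance 1e-06). FPKM as deposited gave, with the counts, an effective length per gene, and TPM from the authors only to compare levels between genes. The edgeR filter on low counts (minimum count 10, minimum total 15) was applied by group, so a tested gene could have fewer than 10 counts in some libraries. Counts were scaled by TMM and compared with the quasi-likelihood F test in edgeR 4.0.16 (R 4.3.3), robust dispersion, 6 residual degrees of freedom, Benjamini-Hochberg over 11702 genes at 0.05. Log2 changes are serine/glycine-free over control, and the standard error derives from the F statistic. For the length trend, a loess curve (span 0.3) of log ratios on log effective length was taken from each library through offsets. Steps were tested on simulated counts. DESeq2 1.42.0, RLE factors, other filters, a replicate block and leaving out each library were alternatives.

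The members, role groups and lists were chosen with earlier results of these data known. The naming rule gave per-library values to the 3 members of each of 6 role groups with the smallest adjusted p, and named all members that rose or did not pass, the highest by TPM, the 4 genes of each pathway list with the smallest adjusted p, and a fixed set of signalling genes, of which 1 is not reported here. Tyk2, Socs1, Ifngr1, Helz2, the PYHIN relatives, Ifitm1, Trim12c, Slfn9 and Slfn10-ps, and the members Ifi27l2a, Isg20 and Ifih1 with their values, were added after values were seen. Intervals and floors cover counting error only.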

Additional observations from a re-analysis of the deposited data

Results flagged for a closer look

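In 88 groups of 4 libraries, which are the 44 genes in each condition, the library farthest from the rest was compared with the spread by Dixon's ratio at its 95% critical value. Chance flags about 1 in 20 such groups, and 3 were found. Dhx58 stood at 94.6 CPM in serine/glycine-free replicate 2, against 89.1 to 89.3 CPM in the other 3 libraries. Ifitm3 stood at 439.1 CPM in control replicate 2, against 481 to 487 CPM. Ifi27l2a stood at 191.6 CPM in serine/glycine-free replicate 4, against 150.9 to 156.6 CPM.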

How the results depend on the processing

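Of the 33 calls among the 44 genes, 28 were the same under every one of the 15 alternatives run, and those of Oasl2, Eif2ak2, Slfn5, Lgals3bp and Bst2 were lost under at least 1. The number that fell was 30 to 33 when single libraries were left out and 31 to 35 under the other alternatives. The number that rose, 1, was 0 without a filter on low counts, with DESeq2, with the length trend removed, with the replicate block and with both of these together, and 0 to 1 when single libraries were left out. Changes of sign were seen for Slfn2 (-0.0249 with the length trend removed, and -0.0249 with the replicate block as well), Bst2 (-0.0117 and -0.0121), Trim25 (0.026 and 0.026) and Ifitm3 (-0.0262, and -0.0602 to 0.00754 when single libraries were left out, the highest being without serine/glycine-free replicate 2); their cause was not tested. Same-numbered libraries of the groups deviated from their group means with correlations of -0.11 to 0.05 across genes. Only 1 of 4 serine/glycine-free libraries correlated best with its own number. This gave no sign of a pairing, but with 4 libraries per group it cannot exclude one. The replicate block gave 31 genes that fell, without Lgals3bp (adjusted p = 0.0719), and 34 once the length trend was also taken out, where Eif2ak2 had an adjusted p of 0.051. Irf9 and Mavs also lost their calls with the replicate block (adjusted p = 0.0586 and 0.0558). Over all genes, 1760 to 1967 fell and 1601 to 1792 rose when single libraries were left out. Of the pathway genes, 60 to 68 fell and 12 to 15 rose, against 69 and 13. At 84 counts in its lowest library, Isg20 is the member whose change is least precise.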
